A study of Mus musculus with 12 samples.

Results

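The 9 genes Bdh1, Oxct1, Acat1, Bcat2, Bckdha, Bckdhb, Dbt, Bckdk and Ppm1k encode the enzymes and regulators with which heart muscle breaks down ketone bodies and branched-chain amino acids. They were chosen by symbol, with earlier results of these data known. All 9 were found among the 46983 genes of the count files and among the 14706 genes that had enough counts to be tested. Their RNA was measured in the left ventricle (LV) of 12 mice aged 12 weeks, with 3 animals in each of 4 groups. Wt non-diabetic and Hif1a+/- non-diabetic offspring were born to non-diabetic FVB dams, and Wt diabetic and Hif1a+/- diabetic offspring to FVB dams in which streptozotocin, a toxin of the insulin-producing beta cells, had induced diabetes before mating. All dams were Wt and were mated with Hif1a+/- males on the FVB background, so that Hif1a+/- offspring carry 1 null allele of Hif1a, the oxygen-regulated subunit of the transcription factor HIF-1, in every cell. The offspring themselves were not treated, and the animals of a group came from several litters whose numbers per animal are not given in the sources used here.

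The heart burns mainly fatty acids, and it also takes up ketone bodies made by the liver and the branched-chain amino acids leucine, isoleucine and valine. For ketone bodies, BDH1 oxidises beta-hydroxybutyrate to acetoacetate in the mitochondrion, OXCT1 attaches coenzyme A to acetoacetate, and ACAT1 splits acetoacetyl-CoA to acetyl-CoA. For the amino acids, BCAT2 removes the amino group and the branched-chain ketoacid dehydrogenase, built from BCKDHA, BCKDHB and DBT, carries out the committed oxidation, which the kinase BCKDK switches off and the phosphatase PPM1K switches on.

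Reads came from the 3′ end of each transcript (3′-seq), and each level below is in CPM, the reads counted on a gene scaled to a common library total after TMM normalization. Totals ranged from 16132442 to 39812939 counts per sample, and the lowest count of any member in any sample was 1427. Cardiomyocyte markers summed to between 97300 and 111444 CPM, and hepatocyte markers to no more than 0.56 CPM in any sample. The Hif1a gene itself stood at 55.7 to 71.8 CPM in Wt non-diabetic, 47.9 to 59.3 in Wt diabetic, 78.8 to 89.4 in Hif1a+/- non-diabetic and 64.8 to 81.5 in Hif1a+/- diabetic hearts. It was thus higher in every Hif1a+/- heart than in every Wt heart of the same kind of pregnancy. The paper also lists Hif1a as upregulated, in Hif1a+/- non-diabetic hearts. However, reads from the 3′ end do not show whether an allele is functional where the deleted part lies elsewhere. The position of the deletion is not given in the sources used here. Therefore this level checks no genotype label. Sex is female in the labels and male in the design text. In 11 libraries Y-linked genes had 3566 to 7701 counts and Xist 5 to 176, whereas Hif1a+/- diabetic replicate 72 had 26 and 3599. By these counts the 11 animals are male and replicate 72 is female, so sex differs within the Hif1a+/- diabetic group. Replicate numbers are those of the animals, and the main differences that include replicate 72 are also given without it.

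Differences between groups were tested with edgeR's quasi-likelihood test on the counts, with all 12 samples in 1 fit and p-values adjusted over the 14706 genes, at the threshold of 0.1 used by the study. None of the 9 members passed in any of the 9 comparisons, and neither did any other gene (0% of the 14706 in each). The absence of calls depended on the tool, and the study itself used DESeq2. At this threshold DESeq2 called 201 genes between the Hif1a+/- groups (1.44% of 13951) and 203 for pregnancy over both genotypes (1.46% of 13951). For any difference it called 130 of 17099 genes. Of all these, 0 were members. Limma-voom called 937 genes between the Hif1a+/- groups (6.37% of 14706), 1 of them a member. With shares this small, few or no members among 9 would be called at the rate of all genes. At an unadjusted p under 0.05, 1 member was found in Wt diabetic against Wt non-diabetic hearts, where 2.78% of all genes were found. In Hif1a+/- diabetic against Hif1a+/- non-diabetic hearts there were 2 members, against 12% of all genes. Over both genotypes, diabetic against non-diabetic pregnancy gave 3 members, against 11.3% of all genes. Without replicate 72 the last 2 counts became 1 member (1288 of 15009 genes) and 2 members (1438 of 15009 genes). Hif1a+/- diabetic against Wt non-diabetic hearts gave 1 member (8.85% of all genes), the genotype by pregnancy interaction 1 (2.52%) and the test of any difference among the 4 groups 1 (6%). Hif1a+/- against Wt over both pregnancies gave 0 members (2.69%), as did Hif1a+/- against Wt in non-diabetic (0.959%) and in diabetic pregnancy (5.35%). No count stood more than 2 genes above the number that the share of all genes gives for 9. The members were therefore described one by one, beginning with the ketone pathway.

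**Figure D1:**
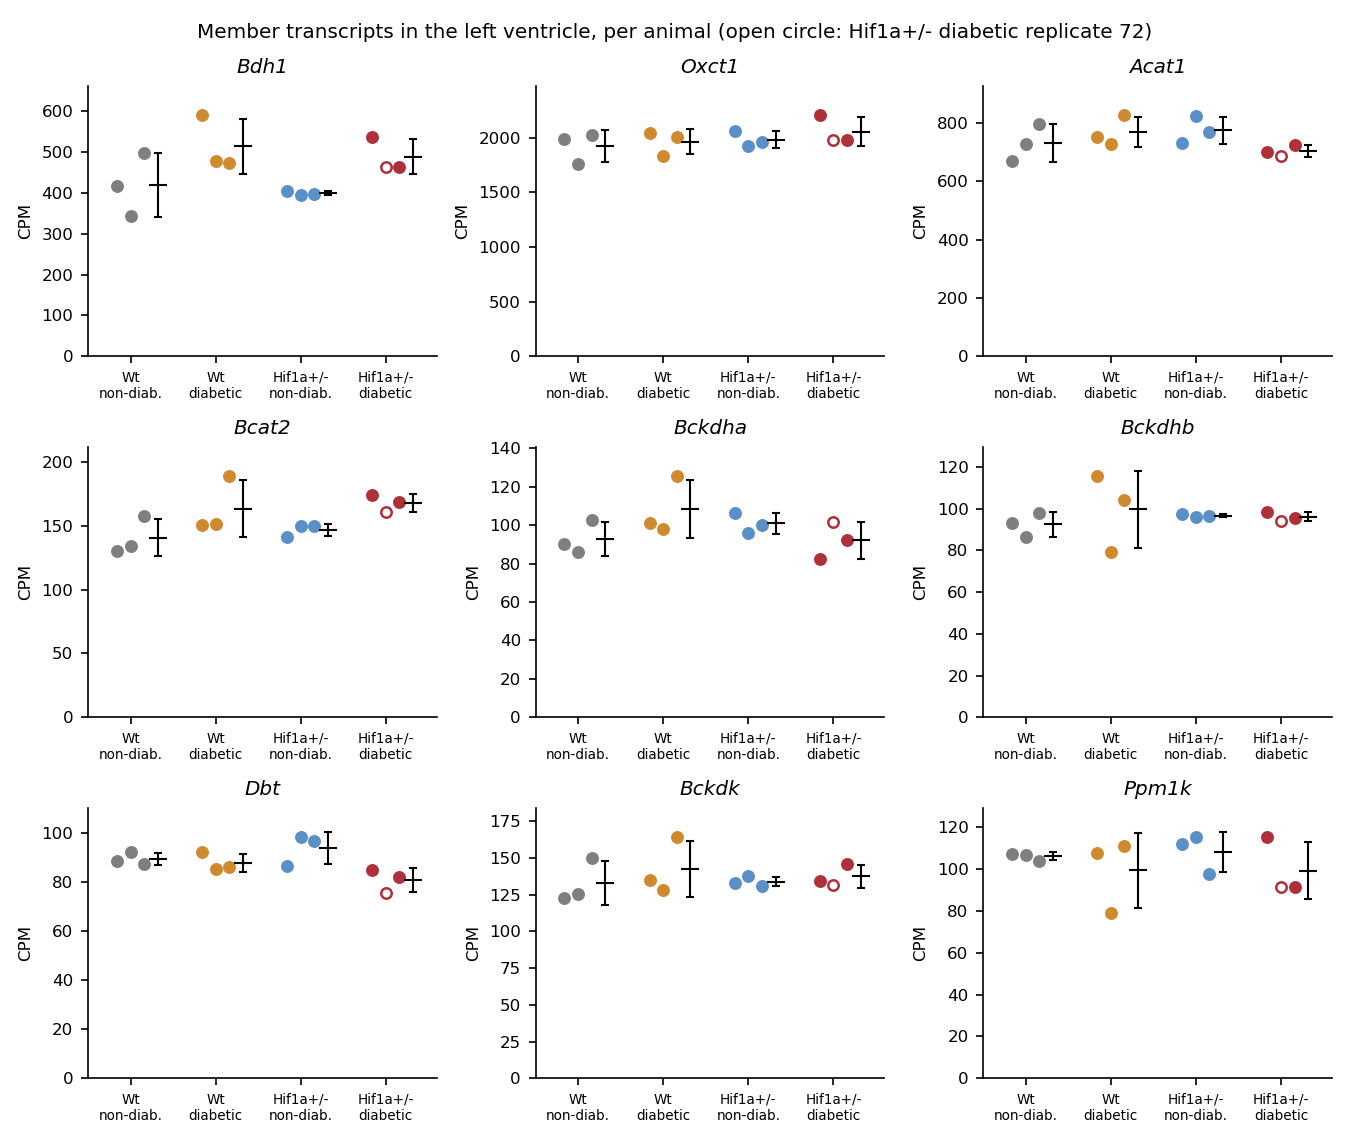
Each panel shows 1 member, with CPM from 0 on the vertical axis and the 4 groups on the horizontal axis. Circles are animals, the open circle is Hif1a+/- diabetic replicate 72, and black bars are the mean ± SD of 3. Bdh1 and Bcat2 lie higher in the Hif1a+/- diabetic than in the Hif1a+/- non-diabetic animals, and Dbt and Acat1 lie lower, each without overlap.

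Bdh1 on chromosome 16 (GRCm38, 31422280 to 31458901, plus strand) encodes the enzyme that starts ketone body oxidation. Its estimate was 22.4% higher in offspring of diabetic than of non-diabetic dams over both genotypes, a difference that did not pass the adjusted threshold. Wt non-diabetic replicates 25, 42 and 89 had 417, 343 and 498 CPM and Wt diabetic replicates 50, 7 and 80 had 591, 478 and 472 CPM. Hif1a+/- non-diabetic replicates 14, 32 and 44 had 405, 396 and 398 CPM and Hif1a+/- diabetic replicates 66, 72 and 77 had 538, 464 and 465 CPM. The Wt groups overlapped through the high non-diabetic replicate 89, whereas every Hif1a+/- diabetic heart was above every Hif1a+/- non-diabetic heart. On the log2 scale the difference was 0.29 in each genotype (SE 0.13), with an unadjusted p of 0.0396 in Wt and 0.0401 in Hif1a+/- (edgeR adjusted p = 1.00 and 0.405). Over both genotypes it was 0.29 (SE 0.09, 95% confidence interval 0.10 to 0.49), with an unadjusted p of 0.00651 and an edgeR adjusted p of 0.306. DESeq2 gave an adjusted p of 0.128 for it, in a comparison in which it called 1.46% of 13951 genes. With no filter on low counts edgeR gave an adjusted p of 0.0202, in a fit that called 2.19% of 27093 genes, and it then also called Bdh1 in the test of any difference among the groups (adjusted p = 0.0967, 2.54% of genes called). The cause of this dependence on the filter was not tested. The Wt difference ran from 0.17 without Wt non-diabetic replicate 42 (unadjusted p = 0.193) to 0.43 without Wt non-diabetic replicate 89 (unadjusted p = 0.00411) in the edgeR fits that left out 1 replicate. Without replicate 72 the log2 fold change was 0.34 in Hif1a+/- hearts (SE 0.15, adjusted p = 0.560) and 0.32 over both genotypes (SE 0.10, adjusted p = 0.351). The interaction was 0.00 (95% confidence interval -0.39 to 0.39), an interval that holds differences between the genotypes larger than the pregnancy difference itself.

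The table of RefSeq promoter sequences used here, 250 bases before a start site, held windows of 7 of the 9 members. Since the groups differ in Hif1a, these windows were searched on both strands for ACGTG and GCGTG, the core letters of the HIF binding motif, where ACGTG and its reverse complement overlap in the run CACGTG. At least 1 match lay in 38.6% of the 32851 promoters of all genes and in 5 of the 10 promoters of the 7 members. The windows of Bdh1 (chr16:31422047-31422296, plus strand, match starting 29 bases before the start site) and Bcat2 (chr7:45569903-45570152, plus strand, 179 bases before) are shown because these genes had the largest pregnancy differences of the 9 over both genotypes. A second window of Bdh1 had 0 matches and a second window of Bcat2 had 1. Windows of Oxct1 and Bckdha, whose log2 pregnancy estimates over both genotypes were 0.04 each, also held 1 match each. The genotype estimates over both pregnancies were -0.07 for Bdh1 and 0.05 for Bcat2. Letters are in lower case with the match in capitals.
Bdh1: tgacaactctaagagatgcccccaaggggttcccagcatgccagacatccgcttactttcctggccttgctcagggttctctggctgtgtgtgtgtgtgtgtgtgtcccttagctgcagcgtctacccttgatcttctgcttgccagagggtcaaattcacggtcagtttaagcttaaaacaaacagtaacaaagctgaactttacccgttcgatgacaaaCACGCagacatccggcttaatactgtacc
Bcat2: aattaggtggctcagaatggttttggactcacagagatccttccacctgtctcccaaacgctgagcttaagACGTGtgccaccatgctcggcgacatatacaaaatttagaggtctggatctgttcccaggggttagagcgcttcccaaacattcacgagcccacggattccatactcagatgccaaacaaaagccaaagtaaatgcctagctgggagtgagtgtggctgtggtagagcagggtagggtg
These are letter matches in GRCm38 sequence, and binding was not measured.

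Oxct1 encodes the step that commits acetoacetate to oxidation, which the liver lacks, and lies on chromosome 15 (4026383 to 4155344, plus strand). Its level was nearly the same in all animals. It ranged from 1755 CPM in Wt non-diabetic replicate 42 to 2207 CPM in Hif1a+/- diabetic replicate 66, and group means lay between 1921 ± 145 CPM (SD, n = 3) in Wt non-diabetic and 2056 ± 131 CPM (SD, n = 3) in Hif1a+/- diabetic hearts. The 4 groups overlapped. The log2 fold change for diabetic pregnancy over both genotypes was 0.04 (95% confidence interval -0.09 to 0.18, edgeR adjusted p = 0.820), so that a difference of the size measured for Bdh1 lies outside the interval. Its within-group SD on the log2(CPM + 1) scale was 0.0876, and 10.2% of the tested genes had a smaller one. For Bdh1 it was 0.173, with 57% of genes below.

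Because BDH1 and OXCT1 act in succession, the ratio of their counts was computed in each animal, which needs no library scaling. The ratio was 0.217 ± 0.026 (SD, n = 3) in Wt non-diabetic, 0.262 ± 0.027 (SD, n = 3) in Wt diabetic, 0.202 ± 0.005 (SD, n = 3) in Hif1a+/- non-diabetic and 0.238 ± 0.005 (SD, n = 3) in Hif1a+/- diabetic hearts. The 3 Hif1a+/- diabetic hearts, at 0.235 to 0.244, were above the 3 Hif1a+/- non-diabetic hearts, at 0.196 to 0.206. In Wt the ranges of 0.195 to 0.246 and 0.235 to 0.289 overlapped. The ratio compares animals and does not give the relative amount of the enzymes.

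Acat1 encodes the mitochondrial thiolase that ends ketone oxidation and also the isoleucine pathway, and lies on chromosome 9 (53580522 to 53610382, minus strand). It had 668, 730 and 798 CPM in the Wt non-diabetic and 754, 730 and 828 CPM in the Wt diabetic replicates, in the order given above. It had 732, 825 and 770 CPM in the Hif1a+/- non-diabetic and 700, 688 and 726 CPM in the Hif1a+/- diabetic replicates. All Hif1a+/- diabetic hearts were below all Hif1a+/- non-diabetic and all Wt diabetic hearts, and overlapped the Wt non-diabetic hearts. The log2 fold changes were -0.14 (SE 0.09, edgeR adjusted p = 0.532) and -0.13 (SE 0.09, adjusted p = 0.862), and -0.11 each without replicate 72. In Wt the pregnancy difference was 0.07 (SE 0.09), and the interaction was -0.21 (SE 0.13, unadjusted p = 0.114, adjusted p = 0.998), or -0.19 without replicate 72. Acat1 thus did not show the direction of Bdh1 in Hif1a+/- hearts, but neither difference passed the adjusted threshold.

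The first step of branched-chain amino acid breakdown is catalysed by BCAT2, the mitochondrial transaminase of muscle, whose gene is on chromosome 7 (45570153 to 45589711, plus strand). The Bcat2 estimate was 15.2% higher after diabetic pregnancy over both genotypes, again without passing the adjusted threshold. It had 131, 134 and 157 CPM in the Wt non-diabetic and 150, 151 and 189 CPM in the Wt diabetic replicates. It had 141, 150 and 150 CPM in the Hif1a+/- non-diabetic and 174, 161 and 169 CPM in the Hif1a+/- diabetic replicates. The Hif1a+/- diabetic hearts were above all hearts of both non-diabetic groups, and the Wt groups overlapped through replicate 89. In Wt the log2 fold change was 0.21 (SE 0.10, edgeR adjusted p = 1.00) and in Hif1a+/- it was 0.19 (SE 0.10, adjusted p = 0.454), or 0.23 without replicate 72 (adjusted p = 0.596). In the edgeR fits that left out 1 replicate, the Wt difference ran from 0.10 without Wt diabetic replicate 80 (unadjusted p = 0.309) to 0.30 without Wt non-diabetic replicate 89 (unadjusted p = 0.0132). Over both genotypes it was 0.20 (SE 0.07, 95% confidence interval 0.05 to 0.36, unadjusted p = 0.0133, adjusted p = 0.347), and 0.23 (SE 0.08, adjusted p = 0.395) without replicate 72. Hif1a+/- diabetic against Wt non-diabetic hearts, a comparison that shares the Hif1a+/- diabetic animals, differed by 0.25 (SE 0.10, adjusted p = 0.526), or 0.29 without replicate 72 (adjusted p = 0.667).

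Samples of Hif1a+/- diabetic and Hif1a+/- non-diabetic hearts did not overlap for 4 members (Bdh1 and Bcat2 higher, Acat1 and Dbt lower), where 24.4% of all genes did not overlap. In Hif1a+/- diabetic against Wt diabetic hearts there were 2 such members, Acat1 and Dbt, both lower (7.94% of all genes), and against Wt non-diabetic hearts 2, Bcat2 higher and Dbt lower (14.6%). No member was apart between Wt diabetic and Wt non-diabetic hearts (5.54% of all genes) or between Hif1a+/- non-diabetic and Wt non-diabetic hearts (4.81%). Markers of other cell types also differed between the same groups, none past the adjusted threshold. All 6 macrophage markers were higher in every Hif1a+/- diabetic than in every Hif1a+/- non-diabetic heart, and their summed level was 264 to 432 CPM against 131 to 200 CPM. It was 171 to 246 CPM in Wt non-diabetic and 187 to 313 CPM in Wt diabetic hearts, and no macrophage marker was at 0. The 6 fibroblast markers all had higher estimates in Hif1a+/- diabetic hearts (median log2 fold change 0.30), 1 of them without overlap, and summed to 1176 to 1536 CPM against 1162 to 1221 CPM. Of the 5 smooth muscle and pericyte markers 2 were higher and 3 lower (median -0.25), 2 of them lower in every heart, and they summed to 842 to 938 CPM against 966 to 1067 CPM. Of the 6 endothelial markers (median -0.05), 1 was higher and 1 lower without overlap. The 4 atrial cardiomyocyte markers were all lower in estimate (median -0.71), each with overlap. The 4 tested red cell markers were higher in estimate (median 0.49), also with overlap. All 4 were lower in every Hif1a+/- non-diabetic than in every Wt non-diabetic heart (median -2.93). The 5 listed red cell markers summed to 7323 CPM in Wt non-diabetic replicate 25 and to at most 1771 CPM in other samples. The 9 cardiomyocyte markers had a median log2 fold change of 0.00 between the Hif1a+/- groups. In bulk LV tissue, fewer cells of a type and less RNA per cell cannot be told apart, and the part of the cell makeup in these differences was not tested.

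**Figure D2:**
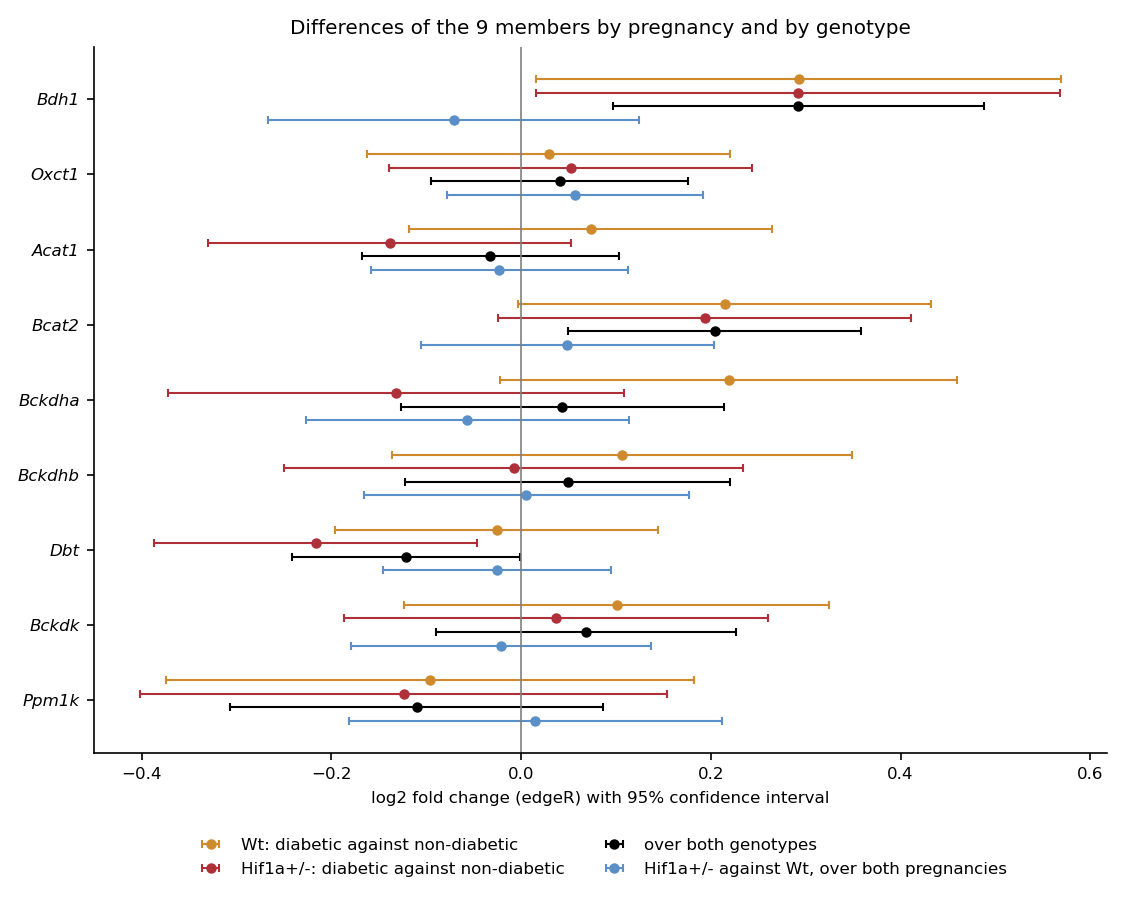
The horizontal axis is the log2 fold change from edgeR, with bars for the 95% confidence interval, and each member on the vertical axis has 4 comparisons. Intervals for pregnancy over both genotypes lie above 0 for Bdh1 and Bcat2 and just below 0 for Dbt, and all intervals for Hif1a+/- against Wt include 0.

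The genes of the dehydrogenase itself had pregnancy estimates of different sign over both genotypes (Bckdha 0.04, Bckdhb 0.05, Dbt -0.12). Between the Hif1a+/- groups all 3 estimates were below 0 (-0.13, -0.01 and -0.22). The E1 part is made of BCKDHA (chromosome 7, 25629946 to 25658981, minus strand) and BCKDHB (chromosome 9, 83925145 to 84124240, plus strand) and removes the carboxyl group. Bckdha had 90.3, 85.8 and 102.6 CPM in the Wt non-diabetic and 101, 98.2 and 126 CPM in the Wt diabetic replicates. It had 107, 96.1 and 99.9 CPM in the Hif1a+/- non-diabetic and 82.3, 102 and 92.4 CPM in the Hif1a+/- diabetic replicates. Both pairs of groups overlapped, with Wt diabetic replicate 80 highest and Hif1a+/- diabetic replicate 66 lowest of the 12. The log2 fold change for diabetic pregnancy was 0.22 (SE 0.11) in Wt and -0.13 (SE 0.11) in Hif1a+/- hearts. This interaction of -0.35 (SE 0.16, 95% confidence interval -0.69 to -0.01) had an unadjusted edgeR p of 0.0446 and an adjusted p of 0.998, and without replicate 72 it was -0.42 (adjusted p = 1.00). Over the edgeR fits that left out 1 replicate it ran from -0.43 without Wt non-diabetic replicate 89 (unadjusted p = 0.0206) to -0.23 without Wt diabetic replicate 80 (unadjusted p = 0.127). Bckdha overlaps B3gnt8 on the opposite strand, which had 1045 counts over the 12 samples against 27149 for Bckdha, and whether reads were counted by strand is not given in the sources used here.

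Bckdhb encodes the partner subunit. It had 79.2 CPM in Wt diabetic replicate 7 and 116 CPM in Wt diabetic replicate 50, the lowest and highest of the 12. In Hif1a+/- hearts it varied little, from 95.9 to 97.3 CPM in the non-diabetic and from 94.0 to 98.3 CPM in the diabetic group, and these ranges overlapped. In Hif1a+/- hearts its log2 fold change was -0.01 (95% confidence interval -0.25 to 0.23, edgeR adjusted p = 0.984). The ratio of Bckdha to Bckdhb counts was 1.00 ± 0.04 (SD, n = 3) in Wt non-diabetic, 1.11 ± 0.20 (SD, n = 3) in Wt diabetic, 1.04 ± 0.05 (SD, n = 3) in Hif1a+/- non-diabetic and 0.962 ± 0.122 (SD, n = 3) in Hif1a+/- diabetic hearts. All groups overlapped in this ratio, with a wider spread after diabetic pregnancy. Over the 12 samples Bckdha and Bckdhb had a Pearson r of 0.35 (permutation p = 0.247, adjusted over 36 pairs 0.483) and a Spearman rho of 0.44 (permutation p = 0.151, adjusted 0.334). Without the 2 samples farthest from the median of Bckdha, r was 0.39.

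Dbt encodes the E2 core, onto which the E1 subunits assemble and which transfers the acyl group to coenzyme A (chromosome 3, 116513070 to 116549981, plus strand). Its 3 lowest levels among the 12 hearts were those of the Hif1a+/- diabetic group. It had 88.9, 92.5 and 87.6 CPM in the Wt non-diabetic and 92.4, 85.7 and 86.2 CPM in the Wt diabetic replicates. It had 86.7, 98.6 and 97.1 CPM in the Hif1a+/- non-diabetic and 84.9, 75.7 and 82.3 CPM in the Hif1a+/- diabetic replicates. Each Hif1a+/- diabetic heart was below all 9 other hearts, although replicate 66 was only just below Wt diabetic replicate 7. From Hif1a+/- non-diabetic hearts the log2 fold change was -0.22 (SE 0.08, 95% confidence interval -0.39 to -0.05, unadjusted p = 0.0163, edgeR adjusted p = 0.349). Limma-voom with sample quality weights gave -0.25 and an adjusted p of 0.0634, past the threshold, in a comparison in which it called 6.37% of genes. DESeq2 gave an adjusted p of 0.296 and called 1.44% of genes there. Without replicate 72, the lowest sample, the difference was -0.16 (SE 0.09, unadjusted p = 0.0909, edgeR adjusted p = 0.626). Over both genotypes the pregnancy difference was -0.12 (SE 0.06, unadjusted p = 0.0485, edgeR adjusted p = 0.439). It was -0.09 (SE 0.06, unadjusted p = 0.144, edgeR adjusted p = 0.620) without replicate 72. From Wt diabetic hearts the difference was -0.12 (SE 0.08) and from Wt non-diabetic hearts -0.15 (SE 0.08), and from Wt non-diabetic to Wt diabetic hearts it was -0.03 (SE 0.08). Without replicate 72 the first was -0.07 (edgeR adjusted p = 0.999) and the second -0.10 (adjusted p = 0.835). The interaction of -0.19 (SE 0.11) had an unadjusted p of 0.110 and an adjusted p of 0.998 and was -0.14 without replicate 72, so a difference between the genotypes in the Dbt response was not shown.

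The last members set the activity of the dehydrogenase. BCKDK phosphorylates the E1 subunit and inactivates the complex, and its gene lies on chromosome 7 (127904082 to 127910221, plus strand). PPM1K removes the phosphate again, and its gene lies on chromosome 6 (57506502 to 57535468, minus strand). Bckdk ranged from 123 CPM in Wt non-diabetic replicate 25 to 164 CPM in Wt diabetic replicate 80, and the log2 fold change for diabetic pregnancy over both genotypes was 0.07 (95% confidence interval -0.09 to 0.23, edgeR adjusted p = 0.728). Ppm1k ranged from 78.9 CPM in Wt diabetic replicate 7 to 115 CPM in Hif1a+/- non-diabetic replicate 32, and its difference was -0.11 (95% confidence interval -0.31 to 0.09, adjusted p = 0.652). For both genes all pairs of groups overlapped. Ppm1k had the largest within-group SD of the 9 (0.178 on the log2(CPM + 1) scale). The ratio of Bckdk to Ppm1k counts, kinase over phosphatase, was 1.26 ± 0.16 (SD, n = 3) in Wt non-diabetic, 1.45 ± 0.19 (SD, n = 3) in Wt diabetic, 1.24 ± 0.09 (SD, n = 3) in Hif1a+/- non-diabetic and 1.40 ± 0.22 (SD, n = 3) in Hif1a+/- diabetic hearts. The means were higher after diabetic pregnancy in both genotypes, but the lowest diabetic hearts, at 1.25 and 1.17, lay inside or below the ranges of the non-diabetic hearts.

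**Figure D3:**
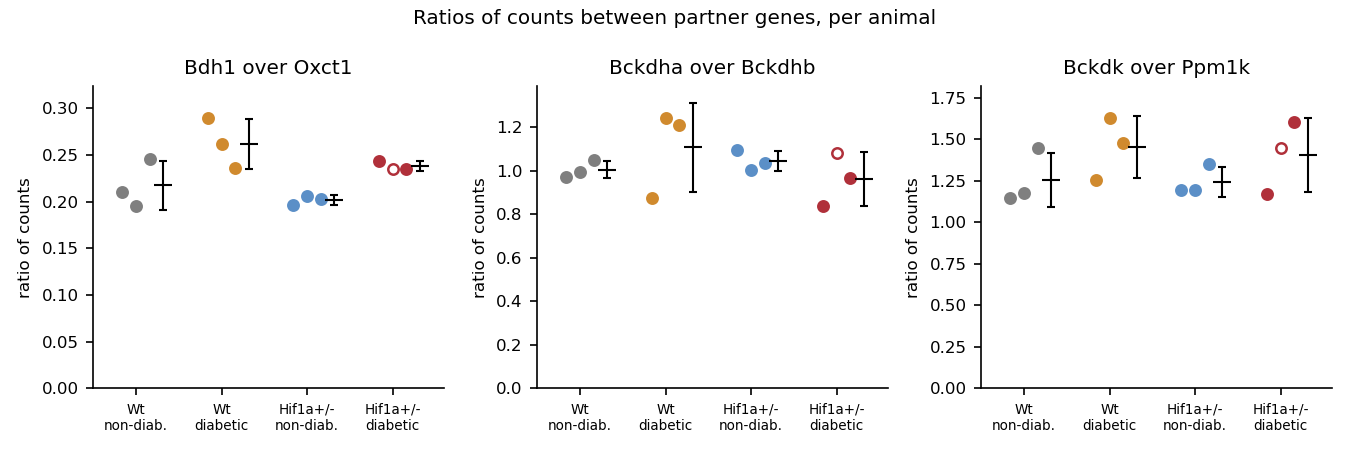
Each panel shows 1 ratio of counts from 0 on the vertical axis for the 4 groups, with circles for animals, the open circle for Hif1a+/- diabetic replicate 72 and bars for the mean ± SD of 3. Of the 3 ratios only Bdh1 over Oxct1 separates the Hif1a+/- diabetic from the Hif1a+/- non-diabetic animals (0.235 to 0.244 against 0.196 to 0.206).

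Between the genotypes, over both pregnancies, no member's estimate was larger than 0.07 on the log2 scale. The estimates ran from -0.07 for Bdh1 (95% confidence interval -0.27 to 0.12) to 0.06 for Oxct1 (-0.08 to 0.19), with 4 members higher and 5 lower in Hif1a+/- hearts and edgeR adjusted p values of 0.999 for all 9. The median over the members was -0.02, beside 0.00 over all genes tested. For diabetic pregnancy over both genotypes 6 members were higher and 3 lower, with a median of 0.04 beside 0.00 over all genes. The median size of the difference, without its sign, was 0.07 for the members and 0.10 for all genes.

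The other genes of the 2 pathways transport or make ketone bodies or carry the amino acids further to acetyl-CoA and propionyl-CoA. Of 32 listed genes 30 were tested, since Oxct2a and Oxct2b, the testis relatives of Oxct1, had 0 counts, and 0 of 30 passed in any comparison in either direction. For diabetic pregnancy over both genotypes 22 of the 30 were higher and 8 lower, with a median of 0.03. By branch, the median was 0.08 for 7 genes of ketone transport and synthesis (6 higher, 1 lower), 0.00 for 5 genes of amino acid entry and first steps (2 higher, 3 lower), 0.02 for 4 leucine genes (4 higher), 0.00 for 7 isoleucine and valine genes (5 higher, 2 lower) and 0.03 for 6 propionyl-CoA genes (4 higher, 2 lower). Between the Hif1a+/- groups these medians were 0.07, -0.06, -0.01, -0.02 and -0.02. Over both genotypes, the smallest unadjusted p values for pregnancy were those of Mmaa, Klf15 and Echs1. Mmaa protects methylmalonyl-CoA mutase (log2 fold change 0.14, SE 0.06, edgeR adjusted p = 0.445). Klf15 is a transcription factor known to raise amino acid breakdown genes (0.34, SE 0.18, adjusted p = 0.491). Echs1 is an enoyl-CoA hydratase (0.16, SE 0.08, adjusted p = 0.492). Without replicate 72 the 3 differences were 0.16, 0.39 and 0.16. In Wt hearts alone the smallest p values were those of Ivd, Pccb and Hsd17b10, at 0.17, 0.14 and 0.18 (adjusted p = 1.00 for each). For Hif1a+/- against Wt they were those of Bcat1, Mut and Acadsb, at 0.20, -0.06 and -0.07 (adjusted p = 0.999 for each). No sign of the pregnancy difference was thus shared by the whole list.

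Mut, which encodes methylmalonyl-CoA mutase, the enzyme that passes propionyl-CoA from isoleucine and valine to the citric acid cycle, was the gene of this list with the smallest p between the Hif1a+/- groups. It had 175, 186 and 168 CPM in the Wt non-diabetic and 186, 183 and 182 CPM in the Wt diabetic replicates. It had 183, 187 and 187 CPM in the Hif1a+/- non-diabetic and 169, 158 and 150 CPM in the Hif1a+/- diabetic replicates. As with Dbt, the Hif1a+/- diabetic hearts were all below the Hif1a+/- non-diabetic and the Wt diabetic hearts, but replicate 66 was above Wt non-diabetic replicate 89. The log2 fold change between the Hif1a+/- groups was -0.22 (SE 0.07, unadjusted p = 0.00901, edgeR adjusted p = 0.299) and -0.21 without replicate 72 (adjusted p = 0.542). The interaction was -0.28 (SE 0.10, unadjusted p = 0.0163, adjusted p = 0.998). In Hif1a+/- hearts Mmaa (0.17, SE 0.09) and Aldh6a1 (-0.18, SE 0.10), a dehydrogenase of valine breakdown, followed with adjusted p values of 0.462 and 0.467.

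**Figure D4:**
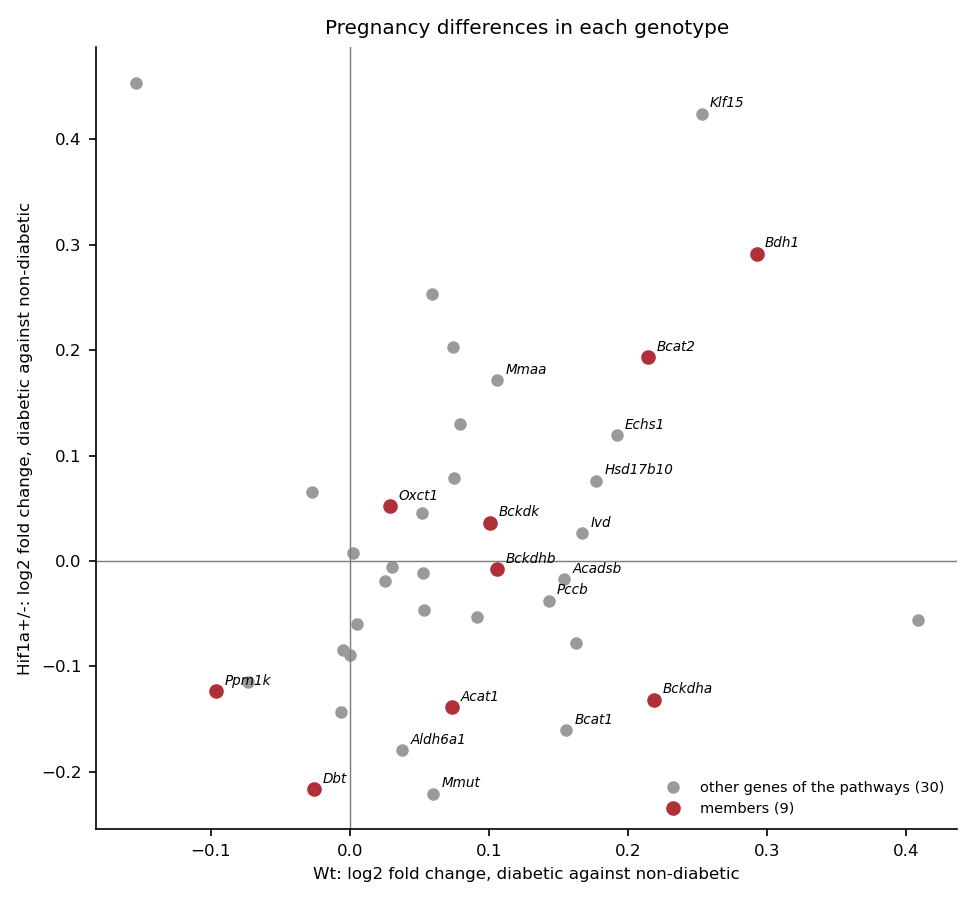
Each point is a gene, with the edgeR log2 fold change of diabetic against non-diabetic pregnancy in Wt on the horizontal and in Hif1a+/- on the vertical axis. Red points are the 9 members, grey points the 30 other tested pathway genes, and labelled grey points are those with the smallest p values. Bdh1, Bcat2 and Klf15 lie up and to the right, and Dbt and Mmut (named Mut in the text) lie low.

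The neighbouring pathways gave the scale of these differences. Between the Hif1a+/- groups the median log2 fold change was -0.14 for 14 fatty acid oxidation genes (3 higher, 11 lower), -0.02 for 17 citric acid cycle genes (7 higher, 10 lower), -0.11 for 10 pyruvate dehydrogenase genes (2 higher, 8 lower) and -0.01 for the 9 members (4 higher, 5 lower). Between the Wt groups the medians were 0.03, 0.08, -0.03 and 0.10. None of these genes passed the adjusted threshold of edgeR in either comparison.

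Across the 12 samples, the levels of the members were compared pair by pair. Of the 36 pairs 26 had a positive and 10 a negative Pearson r of log2(CPM + 1), and none had an adjusted permutation p under 0.1. The highest r was that of Bcat2 and Bckdk, the transaminase and the kinase, at 0.80 (permutation p = 0.00286, adjusted 0.103), with a Spearman rho of 0.70 (permutation p = 0.0142, adjusted 0.163). Without the 2 samples farthest from the median of Bcat2, r was 0.76, and among deviations from the group means it was 0.91. Acat1 and Bckdk followed, at 0.69 (permutation p = 0.0149, adjusted 0.257), 0.59 without 2 samples and 0.86 among deviations, with a rho of 0.61 (permutation p = 0.0414, adjusted 0.213). The next pair was Oxct1 and Bckdhb, at 0.66 (permutation p = 0.0237, adjusted 0.257) and 0.79 without 2 samples, with a rho of 0.78 (permutation p = 0.00446, adjusted 0.161). Bdh1 and Oxct1 had an r of 0.62 (permutation p = 0.0300, adjusted 0.257), which was 0.39 without 2 samples and 0.81 among deviations from the group means, and a rho of 0.61 (permutation p = 0.0389, adjusted 0.213). Bdh1 and Acat1, the first and last steps of ketone oxidation, had an r of -0.02 (permutation p = 0.955, adjusted 0.955) and a rho of -0.06 (permutation p = 0.854, adjusted 0.920), and -0.15 without 2 samples.

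Among all 14706 tested genes, the pattern over the 12 samples most like that of Bdh1 was that of Stk11 and Asb11 (Pearson r 0.88 each). For the other ketone genes these were Poln (0.93) and Tmem177 (0.92) for Oxct1, and Tprgl (0.86) and Acadm (0.85) for Acat1. For Bcat2 they were Ubac1 (0.95) and Ssr4 (0.94), and for the dehydrogenase subunits Zswim7 (0.89) and Snhg15 (0.87) for Bckdha, Apoo (0.95) and Bzw2 (0.94) for Bckdhb, and Pgm5 (0.97) and Qrich1 (0.95) for Dbt. Those most like Bckdk were Dnpep (0.96) and Use1 (0.93), and those most like Ppm1k were Svip (0.90) and Fbxo8 (0.89). These are the highest of many values over samples that share their libraries, and they are given as a description. The members themselves were left out of this search.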

How the data were processed

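Total RNA from the LV of 12 mice (4 groups of 3) was sequenced as 3′-seq libraries. Per the labels and the study's methods, the authors trimmed reads with Trimmomatic, removed ribosomal and mitochondrial reads, aligned with STAR 2.5.2b to GRCm38 with GENCODE M8 and ran htseq-count. Each deposited file holds raw counts for every gene of 1 sample, and the strand setting is not given in the sources used here. The tally lines for unassigned reads, 20.2 to 24.2% of the reads tallied in a sample, were left out. The authors also deposited normalized counts, which were not used here. Symbols came from GENCODE M21 by Ensembl identifier, for 46488 of 46983 genes, and promoters from RefSeq (GRCm38.p6).

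Groups were taken from the labels. Counts were tested with edgeR 4.0.16 in R 4.3.3 (TMM, filterByExpr by group, 1 mean per group, quasi-likelihood), with Benjamini-Hochberg adjustment over 14706 genes, a threshold of 0.1 and 8 residual degrees of freedom. The common biological coefficient of variation was 13.7%. Within every group the samples were further apart than counting noise. The edgeR p-values weigh a difference against the spread between animals within groups, estimated over all 4 groups and moderated across genes. Litters could not be modelled, so any littermates were treated as independent. Correlations used log2(CPM + 1) and 100000 permutations, two-sided (scipy 1.17.1). Alternatives were DESeq2 1.42.0, limma-voom 3.58.1 with quality weights, DESeq2 size factors in edgeR, no filter or at least 10 counts in every sample, a threshold of 0.05, only the groups compared, a robust fit and leaving out each replicate. The functions were tested on simulated data. Named genes were the 9 members, the 3 pathway genes with the smallest p in each of 5 comparisons and the 2 genes outside the members most like each member. Members and lists were chosen with earlier results of these data known. The partner ratios, the promoter search and the correlation within groups were chosen after seeing the data.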

Additional observations from a re-analysis of the deposited data

How the results depend on the processing

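The count of members called was 0 in all 9 comparisons with edgeR. It became 1 with limma-voom between the Hif1a+/- groups (Dbt), and 1 with no filter on low counts for pregnancy over both genotypes and for any difference (Bdh1 in each). The count of pathway genes called, also 0, became 1 with limma-voom between the Hif1a+/- groups (Mut). With no filter it became 1 in the same comparison, for pregnancy over both genotypes and for any difference (Klf15 in each). Limma-voom called 937 of all 14706 genes between the Hif1a+/- groups (6.37%). Of 27093 genes, the fit with no filter called 592 between the Hif1a+/- groups, 593 for pregnancy over both genotypes (2.19%) and 689 for any difference (2.54%). The cause of these changes in the counts was not tested. Every other alternative listed in the methods, and each fit that left out 1 replicate, gave 0 for both counts. Of 477 log2 fold changes of members under alternatives, 475 kept their side of the threshold, as did all 864 with 1 replicate left out. These counts test stability little. No member was near the threshold in the main edgeR fit (lowest adjusted p 0.306), and leaving out an animal lowers power. No sign changed where the value had been larger than its SE.

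Over the fits that left out 1 replicate, the pregnancy difference over both genotypes ran from 0.23 to 0.36 for Bdh1 and from 0.15 to 0.25 for Bcat2, and that of Dbt between the Hif1a+/- groups from -0.27 to -0.16. The count of correlated pairs was 0 with Pearson and with Spearman correlation, and 1 (Bcat2 and Bckdk, adjusted permutation p = 0.0871) with DESeq2 size factors. No paired analysis was possible because the groups share no animal numbers. At these counts the spread between animals, not depth, set the precision.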
